A study of Mus musculus with 6 samples.

Results

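The regions described here are the 635 stretches of chromatin that had an accessibility peak in all 3 Sham lists and in no UNx list, among 126087 merged regions on chromosomes 1 to 19 and X. The data are 6 ATAC-seq libraries, made with a transposase that inserts sequencing adapters where chromatin is open. Each library held 3 hand-dissected S1 proximal tubules, the first segment after the glomerulus, of male wild-type C57BL/6 mice (Taconic) aged 7 weeks. The Sham group (3 libraries) had a sham operation and the UNx group (3 libraries) the surgical removal of 1 kidney (unilateral nephrectomy), both 24 h before collection. Whether the libraries of a group came from different mice is not stated, so the spread between libraries may be technical.

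Members were chosen by presence in the authors' peak lists: overlapping intervals (1 bp or more) from any list were joined, and a joined region was kept when every Sham list and no UNx list had an interval in it. Presence or absence is therefore a description of the choice and not a result. A region's strength is its percentile rank by −log10 q (the caller's adjusted peak significance) within 1 list, where 100 is the strongest peak and 0 stands for no peak. Depth is unknown, because the lists hold no read counts, and absence means that no peak passed the caller's threshold (−log10 q of 1.3) rather than closed chromatin. The reverse set, regions in all 3 UNx lists and no Sham list, held 1570.

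Accessible regions away from gene starts are mostly enhancers or binding sites of CTCF, the zinc finger protein that anchors chromatin loops and insulates neighbouring domains. Promoters of expressed genes are usually open in every sample of a tissue, while distal sites vary more between cell states. In the proximal tubule, nuclear receptors such as HNF4 and the glucocorticoid and androgen receptors act largely through such distal sites. After loss of a kidney, the tubule cells of the remaining one enlarge to take over its transport load.

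The sequences below carry the 3 features that the values later turn on. The first is the strongest member, at the promoter of Dop1b, a gene of the Dopey family linked to membrane traffic. It is shown on the plus strand of mm10 (GRCm38), which is also the strand of Dop1b, with 100 bases on either side of its strongest summit, with capitals for its 3 GC boxes (GGGCGG on the opposite strand).
Dop1b chr16:93711588-93711788: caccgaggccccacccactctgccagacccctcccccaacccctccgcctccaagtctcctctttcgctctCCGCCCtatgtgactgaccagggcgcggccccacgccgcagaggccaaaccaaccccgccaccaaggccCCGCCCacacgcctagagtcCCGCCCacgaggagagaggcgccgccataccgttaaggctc

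The second feature is the core of the CTCF motif. Of the stronger members that hold it, 4 are shown on the plus strand of mm10, named by their nearest protein-coding gene, with the core in capitals and 20 bases on either side. They were chosen after their values were seen.
Dmpk chr7:19088989-19089040: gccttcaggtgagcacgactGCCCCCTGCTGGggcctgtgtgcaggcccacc
Cyb561d1 chr3:108204130-108204181: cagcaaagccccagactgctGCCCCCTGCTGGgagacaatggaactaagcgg
Magel2 chr7:62375824-62375875: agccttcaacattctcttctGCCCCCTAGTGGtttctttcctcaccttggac
Kif13b chr14:64624428-64624479: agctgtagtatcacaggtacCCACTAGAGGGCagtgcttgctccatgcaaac

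The third feature is the inverted repeat to which the glucocorticoid, androgen, mineralocorticoid and progesterone receptors bind. The 5 strongest of the 9 members that hold it are shown in the same way, with the palindrome in capitals.
Gnai1 chr5:18284469-18284523: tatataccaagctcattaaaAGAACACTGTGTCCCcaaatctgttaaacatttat
Kdm7a chr6:39208378-39208432: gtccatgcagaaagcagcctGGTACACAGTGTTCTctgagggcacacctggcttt
Setmar chr6:108093568-108093622: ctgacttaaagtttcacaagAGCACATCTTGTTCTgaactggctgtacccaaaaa
Ppp3r1 chr11:17169439-17169493: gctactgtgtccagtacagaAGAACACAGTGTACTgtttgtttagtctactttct
Crim1 chr17:78209800-78209854: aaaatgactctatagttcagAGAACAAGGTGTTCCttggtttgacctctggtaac

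The last 4 sequences are members upstream of Kap, which encodes kidney androgen-regulated protein, an androgen-responsive product of the later proximal tubule. Each is 121 bases around the strongest summit on the plus strand of mm10, with capitals for the 21 bases centred on the summit.
Kap chr6:133871332-133871452: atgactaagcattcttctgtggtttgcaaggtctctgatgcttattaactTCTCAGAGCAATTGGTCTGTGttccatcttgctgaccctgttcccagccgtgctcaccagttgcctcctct
Kap chr6:133872799-133872919: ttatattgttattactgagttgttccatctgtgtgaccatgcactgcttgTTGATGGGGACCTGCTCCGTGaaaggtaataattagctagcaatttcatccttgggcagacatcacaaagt
Kap chr6:133883466-133883586: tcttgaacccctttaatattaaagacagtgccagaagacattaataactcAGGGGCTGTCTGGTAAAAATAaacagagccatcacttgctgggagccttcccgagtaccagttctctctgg
Kap chr6:133886135-133886255: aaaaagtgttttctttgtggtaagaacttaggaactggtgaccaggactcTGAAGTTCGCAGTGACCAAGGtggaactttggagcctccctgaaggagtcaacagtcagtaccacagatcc

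Marker promoters of the labelled segment were open in all libraries. Promoters of 29 of 30 S1 genes had a peak in every library, and the promoters of Slc5a2, the main glucose transporter of S1, and Lrp2, the endocytic receptor megalin, ranked from 87.2 to 97.3. Of 22 genes of other nephron segments, 9 to 14 promoters had a peak. Among them Scnn1g (88.5 to 96.5), Aqp3 (83.3 to 89.5) and Umod (66.2 to 80.3) ranked high in every library. Those of Slc12a3 and Aqp2 had none in any library. Of 26 genes of podocytes, endothelium, stroma and immune cells, 9 to 12 promoters had a peak. Pdgfra ranked 77.7 to 94.5, Col1a1 62.0 to 75.8 and Nphs1 10.2 to 59.4, while Ptprc and Csf1r were at 0 throughout. The summed percentile of this list ran from 348 to 542 in Sham and from 428 to 485 in UNx libraries. It joins promoters that differed in both directions. The endothelial promoter of Flt1 ranked 27.0, 11.6 and 36.4 in Sham and 0, 8.04 and 7.84 in UNx libraries. Those of Emcn, Pecam1 and Tek had a peak in some Sham lists and in no UNx list, while Kdr overlapped. The podocyte promoter of Synpo ranked 62.4, 46.6 and 52.2 in Sham and 76.6, 85.3 and 84.3 in UNx libraries. These differences were not tested. The lists held 77346 to 97824 intervals in Sham and 93573 to 100990 in UNx libraries. Sham 2 was the shortest.

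Most members were weak and narrow peaks. Their median percentile was 24.1 in Sham 1, 18.7 in Sham 2 and 24.8 in Sham 3, where the median of a whole list is 50 by construction. The median −log10 q was 6.85, 4.71 and 7.15 in these libraries, and the median fold enrichment over the caller's background was 4.21, 4.01 and 4.36. These peak values are the authors'. Only 8 of the 635 members had a mean Sham percentile above 50, and 260 were at or below 20. UNx-only regions were alike in this respect, with medians of 20.3, 20.2 and 24.9 in UNx 1, 2 and 3. The median width was 291 bp against 408 bp over all merged regions and 738 bp over the 59606 regions in all 6 lists. The other regions in exactly 3 lists were alike, at 285 bp. A single summit was found in 544 members (85.7%), against 85.1% of these other regions, 80.1% of UNx-only regions and 59.0% of all merged regions.

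**Figure D1:**
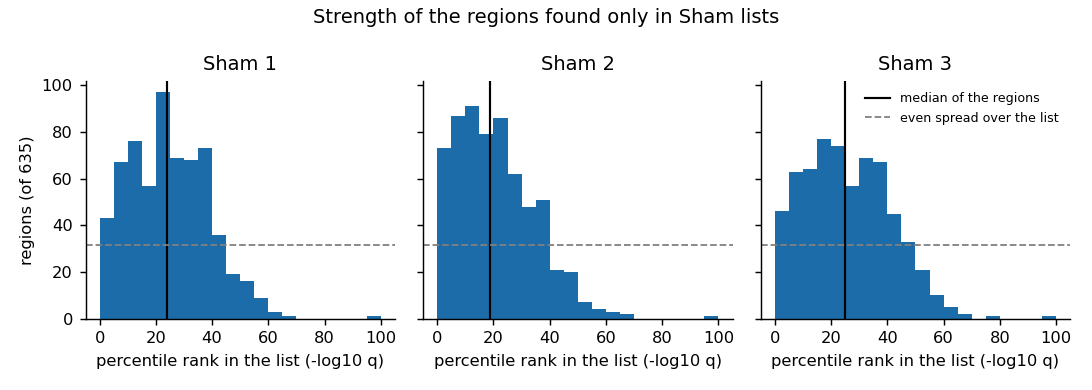
Number of Sham-only regions (vertical axis, of 635) in bins of 5 percentiles of their rank by −log10 q within each Sham list (horizontal axis), one panel per library. The black line is the median and the dashed line an even spread over the list; most regions lie in the lower part of each list, and 1 region stands near 100 in all 3.

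The order of strength was only partly shared between Sham libraries. Across the 635 members, which are not independent, Spearman's rho was 0.362 between Sham 1 and 2, 0.501 between Sham 1 and 3 and 0.304 between Sham 2 and 3. Sham 2 gave the lowest of the 3 percentiles in 288 members (45.4%).

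The edge of the rule ran through weak peaks. Just inside it, the member nearest to a UNx interval lay 26 bp from one, near Elavl1, with percentiles of 47.2, 28.3 and 42.4 in Sham 1, 2 and 3. The lowest single Sham value of a member was 0.0220, in Sham 2, near Ccdc14. Just outside it were 1276 regions with a peak in all 3 Sham lists and 1 UNx list, 520 of them in UNx 2, 487 in UNx 3 and 269 in UNx 1, at a median UNx percentile of 21.1. A further 2470 regions were in 2 Sham lists and no UNx list, and 1912 of these missed only Sham 2. The number of members followed these near misses: it was 2551 without Sham 2, 1161 without UNx 2 and 1135 without UNx 3, and 393 with a −log10 q of at least 5. With every list cut to the length of the shortest there were 928, which overlapped 275 of the 635.

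Members lay mostly away from gene starts. Of the 635, 260 (40.9%) were intergenic, against 28.0% of all merged regions and 25.6% of UNx-only regions. Another 269 (42.4%) lay in introns of protein-coding genes (46.8% of all regions), and 43 (6.77%) in noncoding genes. Only 20 members (3.15%) lay within 1 kb of a protein-coding start, against 13.8% of all regions and 9.49% of UNx-only regions. Of the other 6994 regions in exactly 3 lists, a set of like width (median 285 bp), 6.11% were at promoters and 31.2% were intergenic. The median distance to a protein-coding start was 29041 bp, against 19772 bp over all regions, and 138 members (21.7%) were more than 100 kb away. These shares describe the lists and were not tested. Drawn as windows of 50 bp on either side of every summit, the set grew to 1087, of which 16.6% were at promoters.

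**Figure D2:**
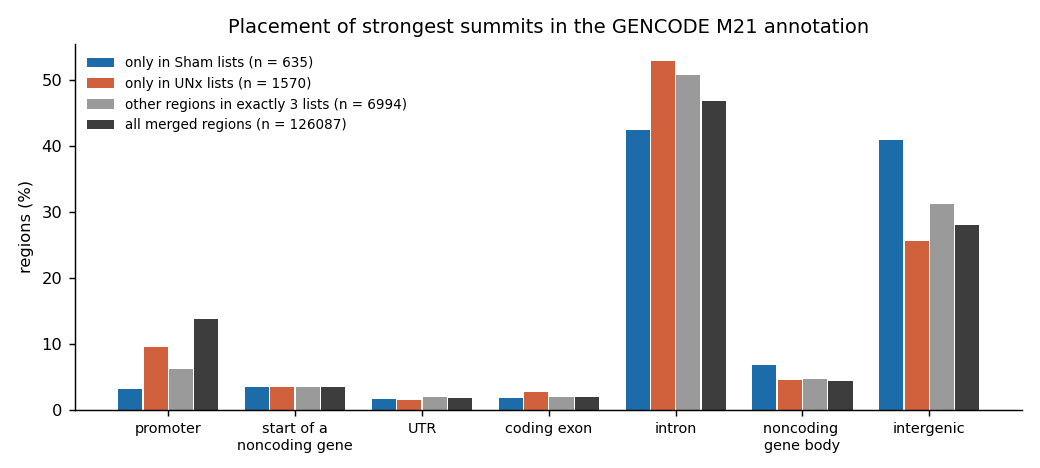
Share of regions (%) by where the strongest summit lies in the annotation, for Sham-only regions and 3 comparison sets. Sham-only regions have the smallest share of promoters (3.15%) and the largest of intergenic summits (40.9%) of the 4 sets drawn.

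Their surroundings were partly open after nephrectomy too. The nearest UNx interval was a median of 4628 bp away (quartiles 1478 and 17420 bp). It lay within 500 bp of 64 members, more than 10 kb from 218 and more than 100 kb from 32. Members were spread over all 20 chromosomes, with the lowest share relative to all regions on chromosome 11 (3.62% against 6.85%).

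One member stood apart. The promoter region of Dop1b, chr16:93711375-93712393, was 1019 bp wide, the widest of all members, with its strongest summit 216 bp upstream of the start. Its percentile was 99.2, 99.4 and 99.6 in Sham 1, 2 and 3, its −log10 q 218, 119 and 218, and its fold enrichment 15.9, 14.1 and 14.8. No UNx list had an interval within 27512 bp of it. The next strongest member reached a mean of 63.7, and the strongest UNx-only region, near Itpr2, reached 65.4. Mappability at this promoter was not tested, since no reads were used, and the absence is that of a called peak. The member was in the set under each of the 8 alternatives checked for it (lists cut to the shortest, −log10 q of at least 5, and each library left out).

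The 3 regions nearest to Dop1b or Cbr3 that were in enough lists to be tested were present in both groups. Regions nearest to Gm5678 or Morc3 within 100 kb were also in enough lists, and their tests are not given here. They went in both directions. A UNx-only region near Gm5678 ranked 25.9, 26.6 and 3.77 in UNx libraries. A coding exon region nearest to Morc3 ranked 24.4, 15.2 and 27.6 in Sham and 2.05, 11.5 and 13.2 in UNx libraries. The promoter of Cbr3, a carbonyl reductase gene on the same chromosome, ranked 82.4, 73.0 and 85.8 in Sham and 90.5, 93.6 and 88.1 in UNx libraries, and the groups did not overlap (difference UNx minus Sham 10.34 ± 3.29, SE, limma adjusted p = 0.163). An intronic region of Dop1b lay 32.4 kb from the strongest summit of the promoter region. It ranked 69.8, 77.0 and 71.2 in Sham and 64.8, 67.0 and 41.8 in UNx libraries (difference −14.75 ± 7.20, SE, limma adjusted p = 0.339). A coding exon region 58.8 kb from that promoter summit ranked 76.4 on average in Sham and 83.9 in UNx libraries (limma adjusted p = 0.375). None of the 3 passed the threshold.

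**Figure D3:**
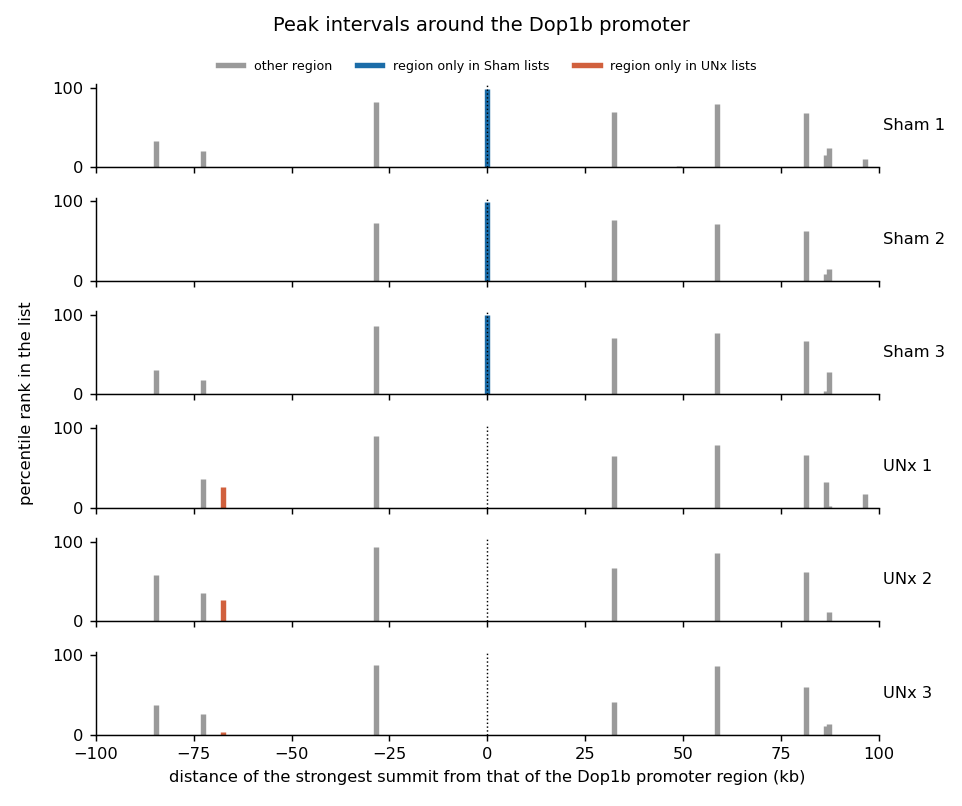
Percentile rank (vertical axis, 0 to 100) of every region within 100 kb of the strongest summit of the Dop1b promoter region, by distance from it in kb, one panel per library. The promoter bar stands near 100 in Sham 1, 2 and 3 and is missing from UNx 1, 2 and 3, where some grey neighbours on both sides are present.

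The other strong members were distal. Celf2 (a regulator of splicing) had an intronic member at chr2:6946082-6946408 with percentiles of 63.0, 64.9 and 63.1, the smallest spread after Dop1b among the 10 strongest (mean 63.7 ± 1.09, SD, n = 3). A member in an intron of Castor1, the arginine sensor of the mTORC1 pathway, had 59.2, 53.9 and 65.6, and lay 735 bp from a UNx interval. Rbfox1, another splicing regulator, had an intronic member at 52.3, 56.8 and 54.8. An intergenic member 2811 bp upstream of Cndp2, a cytosolic dipeptidase gene, had 51.3, 66.9 and 57.8. It also held the CTCF core and was the strongest member to do so. Ranked by fold enrichment instead, the mean percentile was lower at Castor1 (27.8) and Cndp2 (26.4) and higher at Celf2 (79.6) and Rbfox1 (69.8).

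Among the 10 strongest, the member of Lzts1 was the most uneven between Sham libraries. It lay in a coding exon and ranked 68.5, 31.2 and 59.7. The intergenic member 21388 bp upstream of Ugt2b37, a glucuronosyltransferase gene, was 970 bp wide and ranked 48.6, 50.99 and 62.7. Tmem132b, Pcbp3, Sft2d3 and Dlg2 had members with mean percentiles of 49.9, 49.8, 49.6 and 49.3. After Lzts1, the strongest exonic members lay in UTRs of Tmem72 and Tnr and in coding exons of Ttc28 and Zbtb37, at means of 40.9 down to 36.6.

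The member near Vmn1r65, a vomeronasal receptor gene, had a neighbour that ranked high in Sham lists and was also present in UNx lists. The member, chr7:5982083-5983084, was 1002 bp wide, 64.2% repeat-masked around its summit, and ranked 60.5, 41.7 and 77.6. A nearby region, chr7:5972217-5973147, ranked 86.3, 79.3 and 94.3 in Sham and 0, 14.1 and 31.8 in UNx libraries. This neighbour was no member and passed the test (difference −71.29 ± 9.71, SE, limma adjusted p = 0.0251), and it was singled out after its values were seen. It was 75.6% repeat-masked around its summit. The call was lost in 6 of 12 other fits, with the replicate number as a block (limma adjusted p = 0.0878), ranking by fold enrichment, no filter on the number of lists, no trend and no robust variance, and without Sham 3 or UNx 1.

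The 19 promoter members other than Dop1b were weak, at means of 0.592 to 39.3. The strongest was that of Grin2a, a glutamate receptor subunit, with 37.9, 36.0 and 43.8. Cd36, the fatty acid and lipoprotein receptor, had a promoter member 66 bp upstream of its start with 37.6, 26.9 and 32.8. Elfn1 and Bend6 had promoter members 165 and 111 bp from a UNx interval, so a neighbouring peak was called there in UNx lists. Phf11d had 24.5, 22.7 and 35.5, and its nearest UNx interval was 24653 bp away. Klb encodes beta-klotho, the co-receptor of the hormones FGF19 and FGF21. Its promoter member ranked 27.1, 3.12 and 27.2. Robo4, an endothelial guidance receptor, had 31.2, 9.88 and 31.4, and Ackr4, a scavenging chemokine receptor, 20.2, 2.85 and 34.2. The remaining 11 were those of B430305J03Rik, Penk, Ube2z, Asah2, Doc2b, Olfr525, Gbp9, Elfn2, Disc1, Arhgap45 and Endou.

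Members were scattered over genes, with Kap as the exception. The 635 members had 592 nearest protein-coding genes, of which 556 were nearest to 1 member, 31 to 2, 4 to 3, and Kap to 5. Of these 5, 4 lay 17630 to 32433 bp upstream of the Kap start within a span of 14803 bp. The member at 17630 bp ranked 43.6, 41.4 and 34.5 in Sham 1, 2 and 3, and the one at 19097 bp ranked 8.42, 4.94 and 36.3. The members at 29764 and 32433 bp ranked 20.4, 19.6 and 38.3, and 16.9, 24.5 and 25.7. All 4 were therefore below the middle of their lists.

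The rest of the Kap neighbourhood had few peaks after nephrectomy. Of 8 non-member regions nearest to Kap within 100 kb, 5 had a peak in Sham 1, 1 in Sham 2 and 6 in Sham 3, against 0, 1 and 0 in UNx 1, 2 and 3. The Kap promoter ranked 13.2, 0 and 2.68 in Sham libraries and 0 in all UNx libraries. The 1 of these 8 regions that was in enough lists to be tested lay 41153 bp downstream of the start. It ranked 29.9, 26.7 and 51.9 in Sham and 0, 28.7 and 0 in UNx libraries, so that the groups overlapped (difference −26.59 ± 12.8, SE, limma adjusted p = 0.334). With lists cut to the shortest, 1 of the 4 upstream members was still matched by a Sham-only region, and with a −log10 q of at least 5 there were 2, while all 4 were matched with any single library left out. Dissected S1 tubules can carry cells of the next segment, and fewer such cells and fewer open sites per cell cannot be told apart in bulk libraries. The mean percentile over the 18 S2 and S3 promoters was 45.9, 40.1 and 43.8 in Sham and 38.1, 41.7 and 44.2 in UNx libraries, and its part in the Kap values was not tested.

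**Figure D4:**
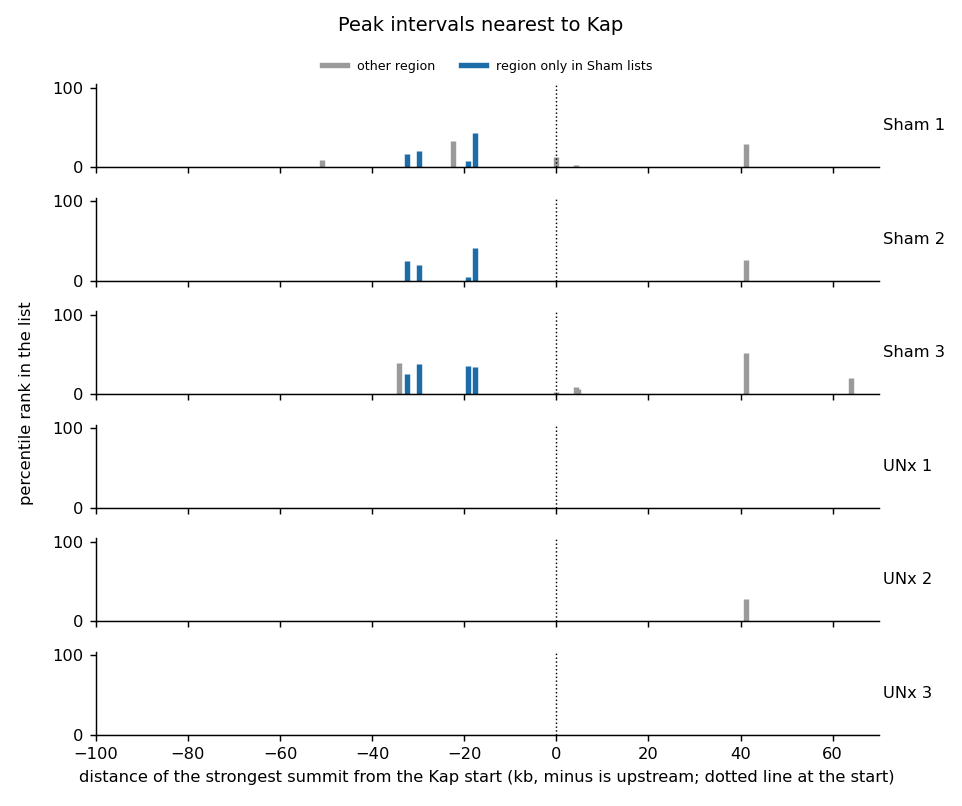
Percentile rank (vertical axis, 0 to 100) of every region nearest to Kap within 100 kb of its start, by distance from the start in kb, one panel per library. The 4 blue members stand left of the start in each Sham panel, UNx 1 and UNx 3 show no region at all, and UNx 2 shows 1 at 41 kb.

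Other runs of 3 or more members within 100 kb were found at 3 places. Gpd2, the mitochondrial glycerol-3-phosphate dehydrogenase gene, had 3 members in 11342 bp, 36924 to 48266 bp inside its body, with means of 34.1, 30.7 and 23.3. Its promoter ranked 91.0, 94.4 and 92.7 in Sham and 84.4, 82.3 and 95.7 in UNx libraries, which overlap. A run of 3 between Boc and Nepro on chromosome 16 had means of 10.5 to 31.4 and lay at least 64405 bp from any UNx interval. A run of 3 near Rxfp1, Tmem144 and Fam198b on chromosome 3 had means of 8.17 to 28.1.

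Genes of kidney programmes were nearest to members about as often as to other regions. Over 11 gene lists with 299 genes, 12 members (1.89%) had a listed gene as their nearest within 100 kb, against 2.25% of all merged regions, 1.96% of the other regions in exactly 3 lists and 2.93% of UNx-only regions. There were 5 for S2 and S3 genes (0.787% of members, against 0.142% of all regions, 0.129% of the other regions in exactly 3 lists and 0.0637% of UNx-only regions). Of these 5, 4 belonged to Kap and 1 to Slc16a9, the creatine and carnitine exporter (mean 4.04). No member was near the 30 S1 genes, the 32 genes of fatty acid oxidation, the 37 of growth factor and mTOR signalling or the 22 of other nephron segments, where a count of 0 in 635 allows a share of up to 0.472% by counting error alone. All regions had 0.370%, 0.235%, 0.387% and 0.0912% near these lists, so an absence was not detectable with 635 members.

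The single list members ranged widely in strength. Itgb6, an integrin subunit induced in injured tubules, had an intronic member with 49.6, 33.7 and 48.5. Ccnd3, the cyclin D3 gene, had 24.4, 22.5 and 33.0. Hsd11b1, which regenerates active glucocorticoid, had 31.6, 2.05 and 15.4. Dusp1, an immediate early phosphatase gene, had 25.1, 6.17 and 1.22, and Sqle, of sterol synthesis, had 17.6, 7.32 and 7.26. Ptprc, the pan-leukocyte marker CD45, had an intronic member at 35.8, 32.4 and 24.9 while its promoter was at 0 in all 6 libraries. The member near Cdh5, an endothelial cadherin gene, was the weakest of all 635, with a mean of 0.436, and the Cdh5 promoter ranked 23.7, 11.3 and 20.4 in Sham and 20.97, 10.9 and 0 in UNx libraries. The part of cells other than tubule cells in these values was not tested.

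Among gene families, chemosensory receptor genes were nearest to 12 members. Odorant receptor genes (Olfr) were nearest to 7 (1.10%), against 0.216% of all regions and 0.0637% of UNx-only regions, and vomeronasal receptor genes (Vmn) to 5 (0.787%), against 0.0563% and none. Only Olfr525 had a member within 1 kb of its start. Around their summits these 12 ranged from 0% repeat-masked (Olfr1507 and Olfr525) to wholly masked (Olfr1186 and Vmn1r210). Over all members the median masked share was 9.45%, equal to that of the other regions in exactly 3 lists.

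Solute carriers were near the share over all regions, and smaller families rested on few members. Solute carriers (Slc) were nearest to 13 members (2.05%, against 2.51% of all regions), among them Slc13a3, the dicarboxylate cotransporter of the basolateral membrane, at 31.9, 13.1 and 34.0, and Slc22a28 with 2 members. Cytochrome P450 genes were nearest to 4 (0.630%, against 0.326%). The member in an intron of Cyp2a4, a steroid hydroxylase gene, was 902 bp wide and 322948 bp from any UNx interval, and it ranked 41.9, 16.7 and 67.2. The families counted after the values were seen were the glucuronosyltransferases (Ugt, 4 members, 0.630% against 0.105%) and the major urinary proteins (Mup, 2 members, 0.315% against 0.0286%). The Zfp family had 8 members (1.26%, against 1.39%).

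Compared with all regions, members were poorer in the GC box, E-box, ETS and NRF1 strings, which are common at promoters. The ETS share was not below that of the other regions in exactly 3 lists. The CCAAT box, given below, had about the same share as in all regions. Their windows of 100 bp on either side of the summit had a median GC content of 47.8%, against 50.7% over all regions. The GC box GGGCGG was in 5.20%, against 12.9% of all regions and 6.76% of the other regions in exactly 3 lists. The E-box CACGTG was in 1.57%, against 4.47% and 3.87%. The ETS string CCGGAAG was in 1.42%, against 2.64% and 1.17%. The NRF1 string GCGCANGCG was in none, against 1.25% and 0.415%. Strings were searched on both strands, and a match is a description rather than a bound site.

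Strings of proximal tubule factors were in few members. The HNF4 string CAAAGTCCA, the site of a main hepatocyte and proximal tubule factor, was in 6 members (0.945%). It was in 2.14% of all regions, 1.76% of the other regions in exactly 3 lists and 3.12% of UNx-only regions. The nuclear receptor direct repeat, which partly overlaps it and is also read by PPARA, was in none. It was in 0.450% of all regions, 0.357% of the other regions in exactly 3 lists and 0.764% of UNx-only regions. The HNF1 palindrome was in none (0.0809% of all regions and 0.0572% of the other regions in exactly 3 lists). A count of 0 in 635 allows a share of up to 0.472% by counting error alone. An absence of the direct repeat or the HNF1 palindrome relative to all regions was therefore not detectable. The ERR string TCAAGGTCA was in 2 members (0.315%). It was in 0.688% of all regions, 0.629% of the other regions in exactly 3 lists and 1.02% of UNx-only regions. The AP-1 string TGANTCA was in 9.76%, against 7.56% of all regions and 8.41% of the other regions in exactly 3 lists. In the same order, the FOX string TGTTTAC was in 3.62% (2.68% and 2.89%), and the CEBP string TTGCNNAA in 9.61% (8.09% and 8.84%). The TEAD string GGAATG was in 13.9% (12.7% and 12.0%), and the CCAAT box in 22.2% (22.2% and 20.8%).

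The CTCF core lay almost only in narrow members. It was in 28 members (4.41%), a share near that of all regions (4.23%) and of the other regions in exactly 3 lists (4.78%), and above that of UNx-only regions (18 of 1570, 1.15%). Of the 28, 27 were among the 224 members no wider than 250 bp (12.1%), and 1 was among the 411 wider ones. All merged regions of that width held the core in 5.49% and UNx-only regions in 3.36%. Of the other regions in exactly 3 lists, 2575 (36.8%, against 35.3% of members) were that narrow. Their share with the core was not counted, so 12.1% has no value from that like set beside it. In all 28 the core lay within 50 bp of the summit, and their mean Sham percentiles ran from 13.3 to 58.7 (median 33.3, against 23.0 over all members). The share stayed between 3.37% and 7.89% under the 8 alternatives checked, and that of UNx-only regions between 1.03% and 1.996%.

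The printed cores came from members of middling strength. The intronic member of Dmpk ranked 40.5, 45.4 and 46.6, and the member 3330 bp from the start of Cyb561d1, in an intron of Atxn7l2, ranked 41.7, 47.1 and 39.3. The intergenic member near Kif13b ranked 40.7, 35.2 and 39.96. A member near Olfr823 on chromosome 10 also held the core and ranked 33.3, 39.9 and 33.3. Its neighbour 3037 bp away, near Olfr822, held the core too without being a member, and ranked 57.6, 56.9 and 64.2 in Sham and 0, 5.91 and 0 in UNx libraries.

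Among non-member regions with the CTCF core, more lay wholly lower than wholly higher after nephrectomy. The 3 UNx values lay wholly below the 3 Sham values in 593 of 4407 such regions (13.5%) and wholly above in 92 (2.09%), against 5.93% and 15.0% of all 87795 tested non-members. Only Sham-only regions were left out of the non-members. The 1570 UNx-only regions, 18 of them with the core, stayed in and lie wholly above by their choice, so these shares are partly set by it. limma called 1 of the 4407 at an adjusted p under 0.05, near Eif4b, where ranks of 93.9, 93.8 and 93.1 in Sham stood against 70.8, 76.8 and 74.3 in UNx libraries (difference −19.63 ± 3.05, SE, limma adjusted p = 0.0358). This call was lost in 8 of 12 other fits, among them the replicate block and the fits without Sham 1, Sham 3, UNx 1 or UNx 3 (limma adjusted p from 0.000669 to 0.255 over the 12). Over all tested non-members it called 21 (0.0239%). With lists cut to the shortest, the shares wholly below and above were 23.97% and 1.32%, against 11.4% and 12.0%, and 28 of 4101 were called (0.683%), all lower, against 0.787% of all 74483 non-members.

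The steroid receptor palindrome was in 9 members (1.42%), against 0.191% of UNx-only regions, 0.143% of the other regions in exactly 3 lists and 0.222% of all regions. The 9 were weak, at mean Sham percentiles of 4.61 to 29.7 (median 12.6), and 4 were intronic and 5 intergenic. The member nearest to Ddit4, an mTORC1 inhibitor gene known for its induction by glucocorticoids, lay 22483 bp upstream of its start and ranked 5.42, 10.9 and 20.0. The intronic member of Gnai1 ranked 17.0, 31.5 and 40.7, and the one 1607 bp upstream of Kdm7a 31.5, 40.1 and 16.5. The others were nearest to Setmar, Ppp3r1, Crim1, Ntpcr, Cntn2 and Tll1. The share moved with the lists used: with lists cut to the shortest it was 2 of 928 (0.216%) and with a −log10 q of at least 5 it was 2 of 393 (0.509%), and leaving out single libraries gave 0.666% to 1.11%. A single arm, AGAACA, searched after the values were seen, was in 21.1% of members, 16.2% of all regions and 14.5% of UNx-only regions. Of the 179 tested non-members with the palindrome, 23 (12.8%) lay wholly lower and 11 (6.15%) wholly higher after nephrectomy, and limma called none, with 26 (14.5%, against 14.9% of all tested non-members) at an unadjusted p under 0.05. With lists cut to the shortest it called 4 of 150 (2.67%, against 0.787%), and with normal scores 10 of 179 (5.59%, against 2.12%), all lower. Among the 179 were the 3 UNx-only regions with the palindrome, which lie wholly above by their choice.

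**Figure D5:**
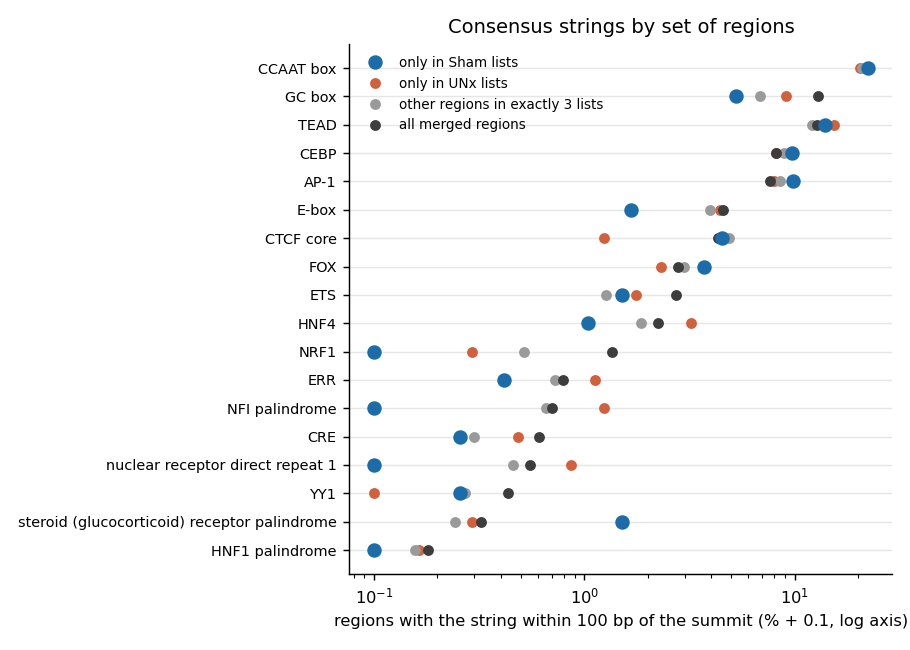
Share of regions holding each of 18 strings in the 100 bp on either side of the summit (% plus 0.1 so that 0 can be drawn, log axis), for Sham-only regions (blue) and 3 comparison sets. The steroid receptor palindrome (1.42%) stands to the right of the other sets, and the CTCF core (4.41%) stands beside all regions and apart from UNx-only regions (1.15%).

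The peaks flanking the members were then tested. Their values did not choose the members, but a Sham-only region could not be a flank. Of 469 non-member regions that were the nearest on either side within 10 kb and in at least 3 lists, limma called 0 at an adjusted p under 0.05, with 90 (19.2%, against 14.9% of all tested non-members) at an unadjusted p under 0.05. Normal scores of the ranks gave 22 calls (4.69%, against 2.12% of all non-members) and lists cut to the shortest gave 7 (1.75%, against 0.787%). The 3 UNx values lay wholly below the Sham values in 38 flanks (8.10%) and wholly above in 68 (14.5%), against the 5.93% and 15.0% of all tested non-members. With lists cut to the shortest these shares were 13.7% and 13.2%, against 11.4% and 12.0%. UNx-only regions were not left out of flanks or non-members. They lie wholly above by their choice and pass the filter only through UNx lists. The calls, the shares at an unadjusted p under 0.05 and the shares wholly below or above are therefore partly set by the rule. The median difference was 2.33 percentiles in flanks and 2.23 over all non-members.

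The 5 flanks of smallest p went in both directions. A region at −36431 bp from the start of Id3, an inhibitor of bHLH factors, ranked 35.2, 0 and 3.71 in Sham and 81.9, 69.5 and 79.4 in UNx libraries, without overlap (difference 63.97 ± 11.03, SE, limma adjusted p = 0.0577). It lay 1564 bp from a member. An intronic region of Creb3l2 was absent from all Sham lists, ranked 59.6, 46.1 and 54.5 in UNx libraries and lay 339 bp from a member. It entered the fit only through the UNx lists, so its p is not given. Regions near D630045J12Rik and Ahcyl2 were higher in all 3 UNx libraries than in any Sham library (limma adjusted p = 0.0577 and 0.0885), and the region near Olfr822 described above was lower (limma adjusted p = 0.0653). None passed the threshold.

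Promoters of the nearest genes were read in the same fit. Of 357 coding promoters that were no member and belonged to the nearest gene of a member within 100 kb, limma called 0 at an adjusted p under 0.05, with 49 (13.7%, against 11.7% of all coding promoters) at an unadjusted p under 0.05. It called 1 of all 12473 coding promoters (0.00802%). The 3 UNx values lay wholly below the Sham values in 27 (7.56%, against 7.23% of all coding promoters) and wholly above in 45 (12.6%, against 11.9%). Promoters at UNx-only regions, which lie wholly above by their choice and pass the filter only through UNx lists, were not left out. The calls and shares of these promoters are therefore partly set by the rule. With lists cut to the shortest 2 were called (0.581%, against 0.415%) and with normal scores 5 (1.40%, against 1.35%). The promoter of Lztr1 ranked 77.1, 81.0 and 86.9 in Sham and 95.1, 91.9 and 95.2 in UNx libraries (difference 12.37 ± 2.71, SE, limma adjusted p = 0.0850). The promoters of Erc2, Tnfsf13 and Sntg2 were also higher in every UNx library than in any Sham library, and that of Lingo2 was lower, at 84.0, 87.4 and 89.0 against 66.8, 77.4 and 62.8 (limma adjusted p = 0.110 to 0.116 for these 4).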

How the data were processed

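ATAC-seq peaks were called separately in each of 6 libraries, as the deposited lists show. Per the submitters' processing notes, cutadapt 3.4, Bowtie, SAMtools, Picard and MACS2 2.2.7.1 were used with mm10, and their settings are not given in the sources used here. The deposited lists hold for each summit a fold enrichment (a linear ratio), −log10 p and −log10 q values and a display score made by the authors. Ranks within a list remove differences in scale between lists but not those in depth, which is unknown.

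Intervals on chromosomes 1 to 19 and X were merged where they overlapped by 1 bp, each region took its best peak per list, and percentiles were computed with pandas. Summits were placed in the GENCODE M21 basic annotation, and sequences were read from the RefSeq GRCm38.p6 genome, whose build equals mm10. Regions in at least 3 of 6 lists were fitted with limma 3.58.1 in R 4.3.3 (eBayes with trend and robust options, two-sided). P-values were adjusted by Benjamini-Hochberg over all of these regions at a threshold of 0.05. On simulated normal scores the fit recovered 27.5% of 200 regions shifted by 1, 74.5% at a shift of 2 and 75% at 4. The simulation had a common spread and no absent peaks, unlike these lists, so the recovery in these lists is unknown. A flank is the nearest non-member region on either side. Named members were the 10 strongest, the 10 strongest promoters, the 5 strongest intronic, exonic and intergenic, the 5 widest, up to 2 per gene list and runs of 3 or more. Flanks and promoters were named by the 5 smallest p-values. The members, lists, strings and tests were chosen with earlier results of these data known. Alternatives are given in the closing section.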

Additional observations from a re-analysis of the deposited data

How the results depend on the processing

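The number of Sham-only regions was 393 with a −log10 q of at least 5 and 1087 with summit windows, and 899 to 2551 with a library left out. Other alternatives gave 571 to 928. The share within 1 kb of a protein-coding start was 16.6% with summit windows, 6.93% with a reach of 2.5 kb and 6.61% with the starts of all annotated genes, and 3.01% to 4.19% with a library left out. Ranked by fold enrichment, the median percentile of members was 30.0, 25.0 and 31.1 in Sham 1, 2 and 3. Calls among flanks were 7 with lists cut to the shortest, 22 with normal scores, 4 with no trend and no robust variance, and 0 to 2 with a library left out. Calls among promoters were 2 and 5 under the first and second of these and 0 under the others. The share with the CTCF core was 7.89% with a −log10 q of at least 5. That with the steroid receptor palindrome was 0.216% with lists cut to the shortest, 0.509% with a −log10 q of at least 5 and 21.1% for the single arm AGAACA, all added after the data were seen. The cause of these moves was not tested. Replicate numbers did not pair the samples (correlations of −0.0229, −0.111 and −0.0253 between same-numbered libraries), and the fit with the replicate number as a block called 0 flanks and 0 promoters. The 10 named flanks and promoters kept their direction in all 117 refits and passed the threshold in 16. These 10 were picked by smallest p, and in each the 2 groups did not overlap. Their direction therefore could not change with a library left out, the block, no filter or other variance options. Both counts include the flank in Creb3l2, which was absent from all Sham lists, so its direction could not change in any refit. Unknown depth limits the reading of every absent peak.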
